A study of Mus musculus with 36 samples.

Results

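The 34 genes described here carry cholesterol synthesis, its control by the SREBP factors, fatty acid synthesis and the liver X receptor (LXR) response. They were chosen by symbol and found among 52636 gene identifiers, and all 34 passed the filter on low counts. RNA-seq was made from bone marrow-derived macrophages (BMDMs) of C57BL/6N mice, wild-type (WT) or labelled N4bp1 knockout (KO), grown in the macrophage growth factor M-CSF. Cells of both genotypes received R837, an agonist of the RNA sensor TLR7, for 3 h or for 7 h. In the other groups the 3 h of R837 were followed by 0.5, 1, 2 or 4 h of actinomycin D (ActD), an inhibitor of RNA synthesis. The 12 groups held 3 libraries each, 36 in all, and every group had R837. Per the labels the 3 libraries came from 3 individual mice. The labels do not tie libraries of different conditions to a mouse, so p-values treat all libraries as independent, and shared mice would make them too small. Cells without R837 were not analysed here. What the N4bp1 deletion removes is not known here.

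Cholesterol is built from acetyl-CoA through mevalonate and squalene. When sterol in the endoplasmic reticulum is low, the escort protein SCAP carries the SREBP factors to the Golgi, where they are cleaved and released to switch on these enzymes, and INSIG proteins hold the complex back when sterol is plentiful. LXR receptors respond to oxysterols and switch on cholesterol export pumps, a ligase that degrades lipoprotein receptors, and the gene of SREBP1, which drives fatty acid synthesis. In macrophages both programmes are known to be altered by Toll-like receptor signals and interferon.

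Total counts per library were between 20.3 M and 46.1 M, with a median of 26.2 M. Summed macrophage markers were at 20193 to 51445 CPM (TMM-normalised read count scaled to library size) over the 36 libraries, against 528.1 to 921.1 for neutrophil markers and at most 34.43 for fibroblast markers. Adipocyte markers, which could carry lipogenic transcripts, summed to at most 0.1475 CPM, with Cidec and Lep at 0 in every library. The 6 fibroblast markers summed to 28.35 to 30.16 CPM in KO and 13.57 to 15.38 CPM in WT at 3 h, and 5 of the 6 were called higher in KO, as were 6 of 6 at 7 h. Of all genes 15.2% were called higher in KO at 3 h and 15.5% at 7 h. Neutrophil markers summed to 866.8 to 903.9 CPM in KO and 578.9 to 598.4 CPM in WT at 7 h, and overlapped between genotypes at 3 h. T and NK cell markers were lower in KO at 3 h (2.305 to 2.675 against 3.099 to 5.61 CPM) and at 7 h (7.566 to 8.324 against 13.1 to 15.12 CPM), and dendritic cell markers at 3 h (4.28 to 5.203 against 6.073 to 6.972 CPM). Their part in the results was not tested. N4bp1 itself was at 81.32 to 85.97 CPM in the 3 KO libraries at 3 h and 125.4 to 147.3 CPM in WT. It was also lower in KO, without overlap, after 0.5 h of ActD (88.25 to 89.28 against 136.4 to 163.2 CPM). The same held after 1 h (82.82 to 90.16 against 126.9 to 135.3) and at 7 h (141.3 to 145.3 against 169.8 to 182.5 CPM). After 2 h of ActD the genotypes overlapped (81.94 to 88.09 CPM in the libraries labelled KO and 74.69 to 89.22 CPM in WT), and after 4 h the order was the opposite (76.81 to 94.19 and 53.42 to 63.31 CPM). Transcript counts over the gene therefore do not check the genotype labels. In bulk RNA, fewer cells of a type and less RNA per cell cannot be told apart.

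Per length, Msmo1, which encodes a sterol methyl oxidase, had the highest level of the 34 genes, a mean of 120.8 CPM per kb over 36 libraries. The LXR alpha gene Nr1h3 followed at 58.6 CPM per kb, then Hmgcs1 (43.13), which encodes the synthase that makes HMG-CoA, and the lanosterol demethylase gene Cyp51 (41.72). At the other end were the acetyl-CoA carboxylase gene Acaca at 0.2488 CPM per kb, the desaturase gene Scd1 at 0.5218 and the farnesyl diphosphate synthase gene Fdps at 0.5582. Fdps (mean 0.8111 CPM) and the isomerase gene Idi1 (2.662 CPM) may share reads with near-identical copies elsewhere in the genome, so their low levels are uncertain.

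RefSeq promoter sequence (GRCm38.p6) was held for 27 of the 34 genes. It was not in the table used for Fdft1, Scd2, Scd1, Stard4, Abcg1, Fdps and Sqle. The 250 bases before each RefSeq transcript start were searched on both strands, so a gene with several starts had several windows. The letters of the sterol response element, the site of SREBP, were taken as TCACNCCA and occurred in 3 of the 27 genes (Hmgcs1, Msmo1 and Srebf2) and in 4.20% of 27025 genes. The stretches of Hmgcs1 and of Srebf2, the gene of SREBP2, are shown because they stand for the pathway and its regulator, with the match in capitals, each read 5′ to 3′ on the strand of its gene. The Hmgcs1 stretch is chr13:119690164-119690271 and that of Srebf2 chr15:82147057-82147164, both on the plus strand and upstream of the GENCODE gene. The stretch around the Msmo1 match overlapped an annotated exon and is not shown.
Hmgcs1: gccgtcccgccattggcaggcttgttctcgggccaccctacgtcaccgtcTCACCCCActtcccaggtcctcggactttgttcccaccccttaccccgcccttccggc
Srebf2: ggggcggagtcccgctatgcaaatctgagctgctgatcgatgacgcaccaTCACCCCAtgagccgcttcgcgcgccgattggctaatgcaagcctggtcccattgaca

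The match began 137 bases before the RefSeq start of Hmgcs1 and 162 before that of Srebf2, and both stretches also held a CCAAT box. None of the 4 printed matches overlapped a match of another motif. Over all 27 genes the CCAAT box (CCAAT) occurred in 20, 74.1% of them against 37.5% of all genes, and the GC box (GGGCGG) in 21 against 35.4% of all genes. Among the squalene and sterol genes all 9 with sequence held a CCAAT box. The E-box CACGTG occurred in 6 of 27, against 6.86% of all genes. Of the LXR element, a direct repeat, one form (in capitals in the last 2 sequences) occurred in Abca1, Fasn and Srebf1, 3 of the 10 genes that held it (0.0370% of all genes). The letters of the SREBP and LXR elements were settled on these same promoters. In all 10 forms were searched, of which 3 other forms of the LXR repeat matched none of the 27 genes, and the longer forms TCACNCCAC and ATCACNCCA matched 1 each. The counts of these elements are therefore not independent of the genes. A match is a run of letters, not a measured site. The LXR element is shown for the 2 of its 3 genes with the most counts. The Abca1 stretch is chr4:53159898-53160012, upstream of the gene. That of Srebf1, chr11:60210589-60210703, precedes an internal transcript start and lies in an intron of the longer transcripts. Both genes are on the minus strand, and the capitals mark the match, which reads on the opposite strand of the gene.
Abca1: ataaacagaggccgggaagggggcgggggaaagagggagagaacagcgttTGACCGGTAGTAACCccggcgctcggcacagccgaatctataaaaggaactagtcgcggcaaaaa
Srebf1: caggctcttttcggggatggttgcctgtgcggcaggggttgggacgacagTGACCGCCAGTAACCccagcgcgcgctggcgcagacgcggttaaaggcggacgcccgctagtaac

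At 3 h of R837 the genes of cholesterol synthesis were lower in KO than in WT. All 18 had a log2 change below 0, from -0.57 to -0.20 with a median of -0.39, where the median of all 13748 genes was 0.01. Of the 18, 15 were called lower and 0 higher by the edgeR quasi-likelihood test at an adjusted p below 0.05 (0 higher also at an unadjusted p below 0.05 and by DESeq2). Over all 34 genes 17 were called lower, where 12.6% of all genes were, and 6 higher, where 15.2% were, a share near that of all genes. When libraries were scaled to ribosomal protein and elongation factor genes instead (stable-reference scaling), the median of all genes moved up by 0.28 and 3 of the 34 genes were called lower and 8 higher. All 18 synthesis genes were below the median of all genes under that scaling as well. A change of scaling moves all genes in a library alike, so this position could hardly change and is not a further test. KO libraries at 3 h also had relatively more counts on long genes (Spearman correlation with gene width, across genes, which are not independent replicates, 0.22 to 0.44, 0.07 to 0.25 in WT), and with that trend removed 14 of the 18 were called lower.

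In the mevalonate arm, Hmgcs1 was at 132, 122.7 and 133.3 CPM in the KO libraries at 3 h and 161.8, 163.4 and 171 CPM in WT. Every KO library lay below every WT library (1.28-fold lower, log2 -0.36 ± 0.06 SE, edgeR adjusted p = 5.38e-05). Pmvk, the phosphomevalonate kinase gene, had the smallest p of this arm, at 15.39, 18.36 and 18.07 CPM in KO against 23.13, 24.57 and 26.25 CPM in WT. Its libraries did not overlap either, and it was 1.43-fold lower (edgeR adjusted p = 3.19e-06). Acat2, whose thiolase joins acetyl-CoA units at the head of the pathway, was at 14.54, 15.43 and 17.33 against 21.1, 20.65 and 23.9 CPM (log2 -0.48 ± 0.11). The decarboxylase gene Mvd (-0.54) and the mevalonate kinase gene Mvk (-0.33) were also called lower, whereas Idi1 (-0.34 ± 0.21) and Fdps (-0.26 ± 0.40) did not pass. The Mvk call was lost without WT replicate 1 (edgeR adjusted p = 0.0511). Under stable-reference scaling the calls of Hmgcs1 (-0.07), Mvk (-0.05), Acat2 (-0.20) and Mvd (-0.25) ended, and that of Pmvk did not.

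In the squalene and sterol arm, Msmo1 was at 130, 134.3 and 161.9 CPM in KO and 211.1, 206.2 and 213.7 CPM in WT at 3 h. All 3 KO libraries were lower, with KO replicate 3 nearest to WT (1.48-fold, log2 -0.57 ± 0.08, edgeR adjusted p = 5.42e-07). Cyp51 had the smallest p of the arm, at 89.81, 99.08 and 96.38 against 129.6, 132.4 and 133.4 CPM (1.39-fold lower, edgeR adjusted p = 1.76e-07). Sc5d, which encodes a late sterol desaturase, was at 38.93, 39.5 and 42.84 against 55.26, 56.24 and 62.51 CPM (log2 -0.52 ± 0.08). For neither gene did the genotypes overlap. Sqle, which encodes squalene epoxidase, a control point of the pathway, was at 33.91, 36.61 and 33.25 against 49.25, 47.7 and 44.09 CPM (log2 -0.44 ± 0.07). Fdft1 (-0.47), which encodes squalene synthase, the lanosterol synthase gene Lss (-0.40), Nsdhl (-0.39) and Hsd17b7 (-0.34) were called lower too. Tm7sf2, a sterol reductase gene, and Ebp, a sterol isomerase gene, were called with small changes (-0.28 and -0.20). Under stable-reference scaling both calls ended (-0.01 and 0.08), as did those of Cyp51 (-0.20), Fdft1 (-0.18), Sqle (-0.17), Lss (-0.12), Nsdhl (-0.11) and Hsd17b7 (-0.06), and those of Msmo1 and Sc5d did not. The Ebp call also ended on leaving out any 1 of the 6 libraries (log2 -0.21 to -0.18), that of Tm7sf2 without KO replicate 1 or WT replicate 1 (-0.21 and -0.19), and that of Hsd17b7 without KO replicate 1 or WT replicate 2 (-0.30 and -0.27). Dhcr7, which encodes the last reductase on the way to cholesterol, did not pass (-0.27 ± 0.12, edgeR adjusted p = 0.0728).

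At 7 h of R837 the deficit of synthesis transcripts in KO covered nearly the whole pathway. Of the 18 genes 17 were called lower and 0 higher (0 also at an unadjusted p below 0.05 and by DESeq2), Fdps being the exception (-0.26 ± 0.29). The median log2 change was -0.53, with a range of -0.86 to -0.26, where the median of all genes was -0.01. Over the 34 genes 23 were called lower (15.1% of all genes were) and 4 higher (15.5%). The 4 higher calls were 2 without KO replicate 1 or without WT replicate 3 at 7 h. Stable-reference scaling moved the median of all genes by 0.05 here and gave 19 lower and 2 higher.

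Sqle showed the largest difference among the synthesis genes at 7 h. It was at 83.65, 83.95 and 76.74 CPM in KO and 144.4, 154.3 and 143.8 CPM in WT. No KO library overlapped WT at 7 h (1.81-fold lower, log2 -0.86 ± 0.07, edgeR adjusted p = 2.57e-13). Hmgcs1 was at 127.2, 131.3 and 115.6 against 183.2, 197.1 and 182.9 CPM (1.51-fold lower, log2 -0.59 ± 0.06). Msmo1 was at 261, 263.2 and 236.1 against 410, 432.2 and 409.3 CPM (1.65-fold lower, -0.72 ± 0.08). In both genes the KO libraries lay far below those of WT compared with the spread inside a group. Dhcr7 (-0.78 ± 0.13) and Tm7sf2 (-0.73 ± 0.11) were next in size after Sqle, then Msmo1, and Idi1 was at -0.69 ± 0.17. Cyp51 (194.1, 205.9 and 181.3 against 271.2, 282.6 and 265.6 CPM), Sc5d (104.5, 111.2 and 96.36 against 139.8, 141.6 and 138.1 CPM) and Pmvk (30.69, 29.93 and 28.68 against 43.64, 44.59 and 41.76 CPM) were 1.41-, 1.34- and 1.46-fold lower. Acat2 was at 44.07, 44.39 and 43.26 CPM against 53.7, 54.6 and 58.85 CPM, the smallest fold of these (1.27).

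**Figure D1:**
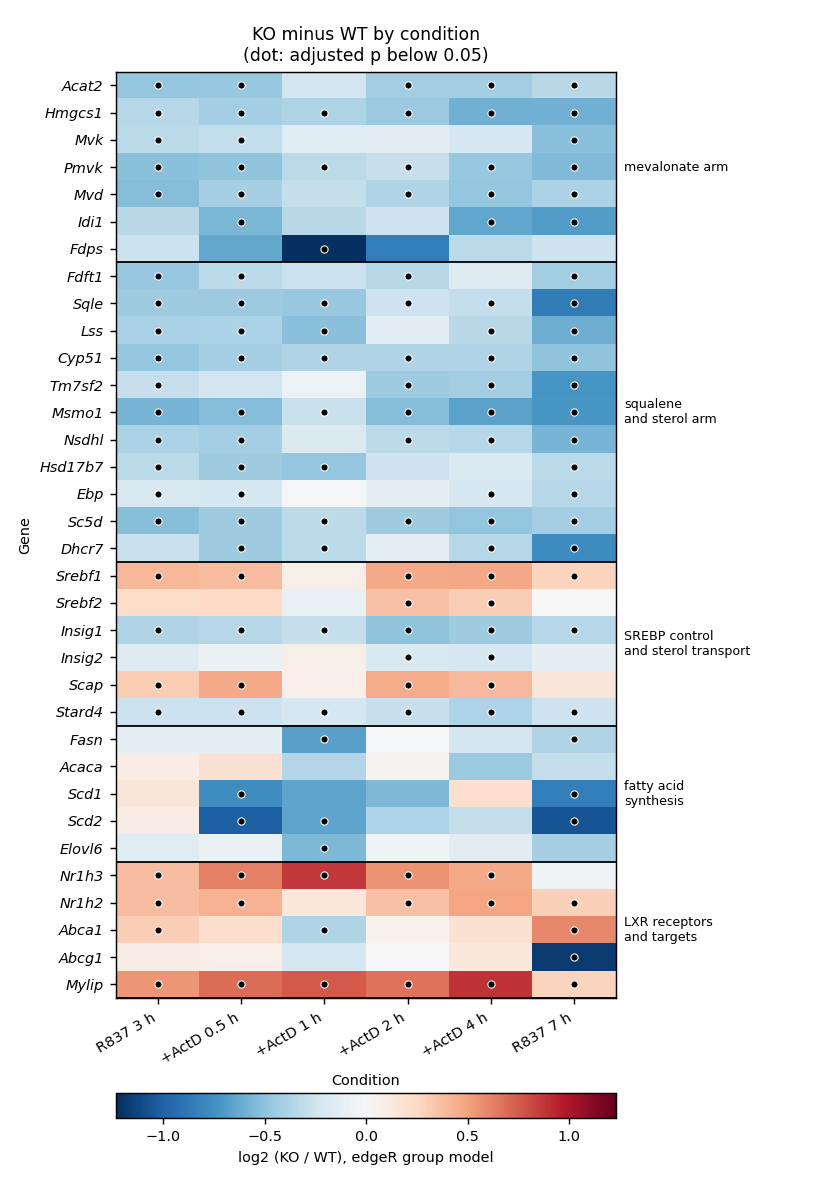
Log2 ratio of KO to WT for the 34 genes (rows, by role) in the 6 conditions (columns), from the edgeR group model on 3 libraries a group; a dot marks an adjusted p below 0.05. The 18 sterol synthesis rows are blue, or near white for Ebp after 1 h of ActD, and 17 of 18 were called at 7 h, whereas Nr1h3 is red in 5 of 6 columns and Mylip in 6 of 6.

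Control genes of the SREBP pathway did not follow the enzymes as a group. At 3 h 2 of 6 were called higher, where 15.2% of all genes were, and 2 lower, where 12.6% were. Insig1, itself a transcriptional target of SREBP, was at 84.45, 89.52 and 96.13 CPM in KO and 126.3, 112.7 and 109.1 CPM in WT, without overlap (1.29-fold lower, log2 -0.37 ± 0.07, edgeR adjusted p = 6.29e-05). At 7 h it was at 91.46, 95.6 and 89.49 against 118.7, 118.8 and 115.6 CPM, a similar 1.28-fold. Stard4, which encodes a soluble sterol carrier, was at 37.9, 34.66 and 37.45 against 45.12, 42.47 and 44.54 CPM at 3 h (log2 -0.26 ± 0.06) and at -0.26 ± 0.06 at 7 h. Under stable-reference scaling the 3 h calls of both ended, with Insig1 at -0.10 and Stard4 at 0.02, and at 7 h those of Stard4 (-0.21) and Srebf1 (0.32) ended. Of the other genes, Hsd17b7 (-0.29), Fasn (-0.31), Scd1 (-0.80) and Nr1h2 (0.34) also lost their 7 h calls under it, and Srebf2 (0.51) and Abcg1 (0.37) were called higher at 3 h. Insig1 and Stard4 were the members of this group called lower in all 6 conditions.

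The genes of the SREBP factors and their escort went the other way or did not pass. Srebf1, which encodes SREBP1, was at 50.36, 45.55 and 42.31 CPM in KO and 36, 37.57 and 31.1 CPM in WT at 3 h, without overlap (1.32-fold higher, edgeR adjusted p = 0.0037). At 7 h it was at 64.1, 67.43 and 66.24 against 54.51, 57.07 and 52.26 CPM (1.21-fold higher, edgeR adjusted p = 0.0395), a call that was lost on leaving out any 1 of the 6 libraries (log2 0.24 to 0.30). Srebf2 was at 138.8, 133.7 and 113.4 against 116.1, 117.6 and 96.01 CPM at 3 h and at 158.9, 162.2 and 158.5 against 158.3, 166.8 and 155.7 CPM at 7 h. Its libraries overlapped at both times and it did not pass (log2 0.23 ± 0.10 at 3 h, edgeR adjusted p = 0.0706). After 4 h of ActD Srebf2 was at 153.9, 159.1 and 134.3 against 125.9, 131.3 and 105.5 CPM, without overlap, and was called higher (1.23-fold, edgeR adjusted p = 0.0125), as it was after 2 h (1.28-fold). Scap was called higher at 3 h (0.32 ± 0.11), a call lost without any 1 of 3 libraries (KO replicates 1 and 2 and WT replicate 3, log2 down to 0.20), and it did not pass at 7 h (0.15 ± 0.11). Insig2, the INSIG gene that is not driven by SREBP, was at 35.06, 35.21 and 41.48 against 42.24, 39.05 and 43.55 CPM at 3 h and at 54.05, 50.53 and 49.66 against 55.97, 56.43 and 55.23 CPM at 7 h. It did not pass at either time (-0.16 ± 0.07 and -0.12 ± 0.07), although at 7 h the libraries were apart.

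**Figure D2:**
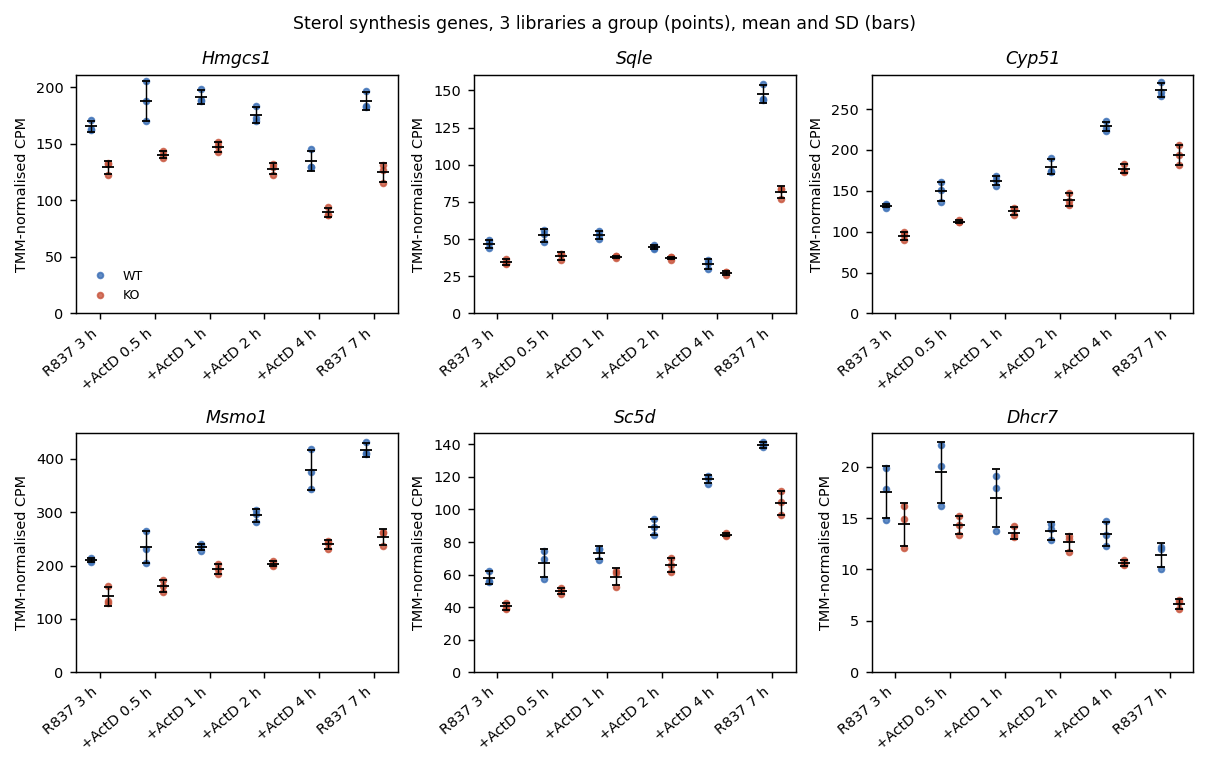
TMM-normalised CPM of 6 sterol synthesis genes in each library (points; blue WT, red KO) with the mean and SD of 3 libraries (bars), by condition. KO points lie below WT points in every condition for Hmgcs1, Sqle, Cyp51, Msmo1 and Sc5d, and Dhcr7 declines between 3 h and 7 h of R837 while the other 5 in WT are higher at 7 h.

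Fatty acid synthesis genes showed no called difference at 3 h (0 of 5 higher and 0 lower, also 0 at an unadjusted p below 0.05 and by DESeq2). Of all genes 15.2% were called higher and 12.6% lower at that time. At 7 h 3 of 5 were called lower in KO, where 15.1% of all genes were. Scd2, the stearoyl-CoA desaturase gene with the higher level per length (5.189 CPM per kb against 0.5218 for Scd1), was at 41.95, 18.94 and 20.41 CPM in KO and 29.11, 27.54 and 20.38 CPM in WT at 3 h. KO replicate 1 stood apart from the other 2, as it did for Scd1 (5.012 against 1.832 and 1.975 CPM). At 7 h Scd2 was at 34.08, 42.92 and 37.23 CPM in KO and 75.65, 83.99 and 78.19 CPM in WT, without overlap (2.08-fold lower, log2 -1.06 ± 0.21, edgeR adjusted p = 8.77e-05). Scd1 was 1.8-fold lower at levels of 1.518 to 3.514 CPM (edgeR adjusted p = 0.0181), a call lost without KO replicate 1, KO replicate 3 or WT replicate 3 (log2 -0.78 to -0.75). Fasn, the fatty acid synthase gene, was at 20.43, 17.96 and 15.64 against 17.74, 24.11 and 16.64 CPM at 3 h. It was at 28.69, 30.56 and 29.84 against 37.1, 40.18 and 37.49 CPM at 7 h, where the genotypes no longer overlapped (1.29-fold lower, edgeR adjusted p = 0.0367). That call was lost on leaving out any 1 of the 6 libraries (log2 -0.39 to -0.33). Elovl6, which encodes an elongase of saturated chains, was at 4.133, 3.701 and 3.992 against 3.947, 4.307 and 4.818 CPM at 3 h and 2.102, 2.27 and 1.838 against 2.298, 3.336 and 2.593 CPM at 7 h. It did not pass at either time, although the libraries were apart at 7 h (-0.41 ± 0.17, edgeR adjusted p = 0.0549), and Acaca did not pass either.

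The LXR genes were higher in KO at 3 h in 4 of 5 (0 lower), where 15.2% of all genes were higher, and at 7 h 3 were higher and 1 lower, where 15.5% and 15.1% were. Nr1h3 was at 120.3, 139 and 152 CPM in KO and 102.6, 101 and 111.5 CPM in WT at 3 h, without overlap (1.3-fold higher, log2 0.38 ± 0.09, edgeR adjusted p = 0.000868). At 7 h it was at 178.7, 169.2 and 177.6 against 176, 180.5 and 183.7 CPM, and the libraries overlapped (-0.04 ± 0.09). Nr1h2, the LXR beta gene, was at 61.32, 62.77 and 53.83 against 51.39, 44.1 and 41.9 CPM at 3 h and 66.7, 67.51 and 69.27 against 55.71, 57.07 and 53.46 CPM at 7 h. It was higher without overlap at both times (1.3-fold, edgeR adjusted p = 0.00233, and 1.22-fold, edgeR adjusted p = 0.0125), the second call being lost without WT replicate 3 (edgeR adjusted p = 0.0564).

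The export pump genes Abca1 and Abcg1, both textbook LXR targets, differed in opposite directions at 7 h. Abca1 was at 285.7, 324.2 and 293.9 CPM in KO and 195.1, 206.1 and 197.5 CPM in WT, so that every KO library was higher (1.51-fold, log2 0.59 ± 0.12, edgeR adjusted p = 1e-04). Abcg1 was at 13.91, 11.69 and 12.7 CPM in KO and 32.69, 26.44 and 27.46 CPM in WT, and every KO library was lower (2.26-fold, log2 -1.17 ± 0.10, edgeR adjusted p = 6.17e-13). At 3 h Abcg1 was at 78.53, 77.83 and 72.92 against 77.21, 70.47 and 68.28 CPM and did not pass. Abca1 at 3 h was at 211.9, 189.3 and 147.8 against 162.8, 162.2 and 119.8 CPM, overlapping and only just called (log2 0.31 ± 0.12, edgeR adjusted p = 0.0494). That call ended without KO replicate 1, KO replicate 2 or WT replicate 3 and after removal of the trend with gene length (log2 0.13). Mylip, which encodes the ligase IDOL, was at 54.55, 52 and 51.77 against 35.34, 37.6 and 35.91 CPM at 3 h (1.45-fold higher, edgeR adjusted p = 1.98e-07). At 7 h it was at 21.79, 18.92 and 18.62 against 15.96, 16.26 and 17.06 CPM (1.21-fold higher, edgeR adjusted p = 0.00549), a call lost without KO replicate 1 (edgeR adjusted p = 0.0883). Mylip was the only member called higher in KO in all 6 conditions.

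**Figure D3:**
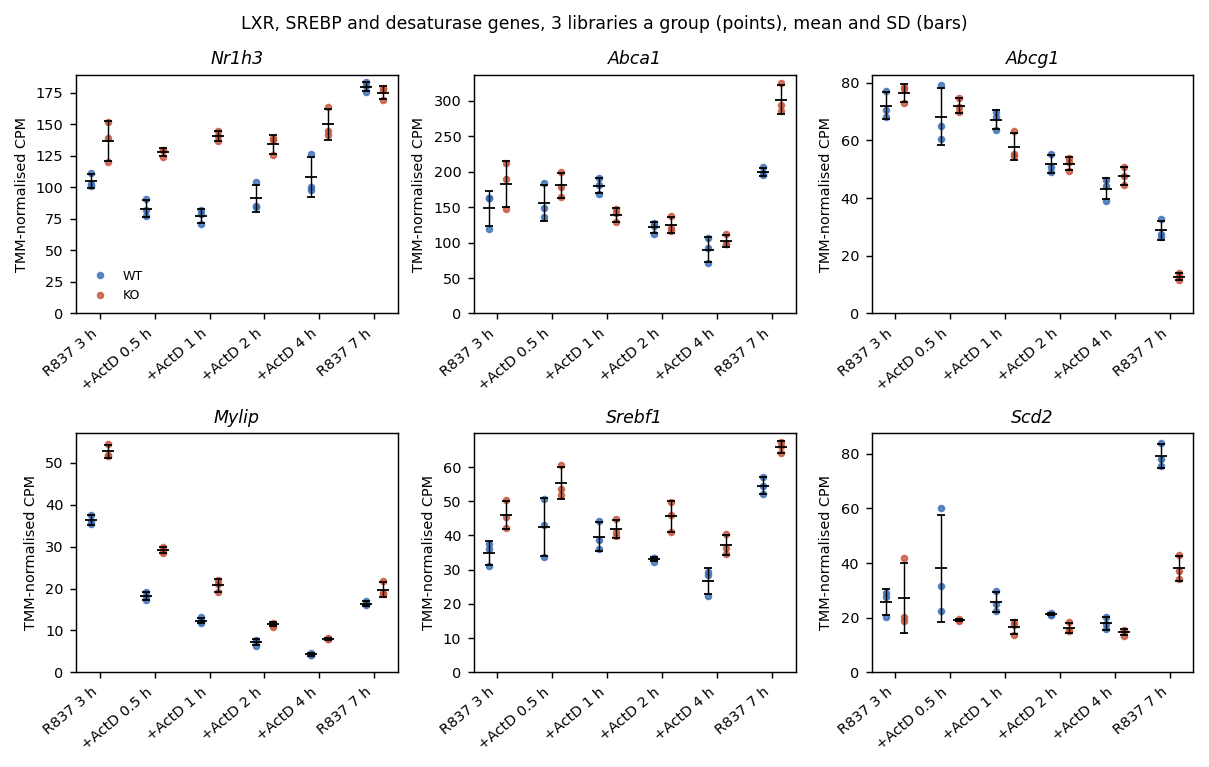
TMM-normalised CPM of LXR, SREBP and desaturase genes in each library (points; blue WT, red KO) with the mean and SD of 3 libraries (bars), by condition. At 7 h the KO points lie above WT for Abca1 and below WT for Abcg1 and Scd2, and Mylip declines along the ActD series in both genotypes with KO above WT.

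From 3 h to 7 h of R837, most of the pathway rose in WT macrophages. Of the 34 genes 25 rose, where 27.3% of all genes did, and 7 fell, where 30.7% did. In KO 21 rose (28.7% of all genes) and 8 fell (31.7%). Among the 18 synthesis genes 15 rose in WT and 3 fell (median log2 1.13), and in KO 14 rose and 3 fell (median 0.95). The largest rises among them in WT were those of Lss (3.63-fold, 13.12 ± 1.38 to 47.57 ± 2.76 CPM, mean ± SD), Sqle (3.14-fold, 47.01 ± 2.65 to 147.5 ± 5.89 CPM), Hsd17b7 (2.93-fold) and Mvd (2.84-fold, 16.75, 16.06 and 16.42 to 44.77, 49.25 and 45.64 CPM). No library at 3 h reached a library at 7 h for these genes. Fdps was 2.88-fold higher at 7 h, at 1.559 ± 0.354 CPM. Hmgcs1 rose least of the 15 (1.13-fold in WT, edgeR adjusted p = 0.0127) and did not pass in KO (-0.05 ± 0.06).

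The 3 synthesis genes that fell did so in both genotypes. Tm7sf2 fell by 0.49 on the log2 scale in WT and by 0.93 in KO, Ebp fell by 0.29 and by 0.45, and Dhcr7 fell by 0.62 and by 1.12. Their products act on the sterol rings, as do those of Sc5d, which rose 2.41-fold in WT, and of Cyp51 and Msmo1, which rose 2.07- and 1.98-fold.

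Of the control genes, Stard4 rose 1.66-fold in each genotype (44.04 ± 1.39 to 72.94 ± 3.27 CPM in WT), and Srebf1 (log2 0.65 in WT), Srebf2 (0.55) and Insig2 (0.42) rose as well. Scap fell by 0.55 in WT and by 0.72 in KO. Insig1 showed no detectable change (0.02 ± 0.07 in WT and 0.04 ± 0.07 in KO), although it is a target of SREBP as the enzyme genes are. Scd2 rose 3.09-fold in WT (edgeR adjusted p = 1.68e-08) and did not pass in KO (0.47 ± 0.21, edgeR adjusted p = 0.0531). In KO at 3 h, replicate 1 stood apart for Scd2 (41.95 against 18.94 and 20.41 CPM). Fasn rose 1.96-fold in WT and 1.64-fold in KO, and Elovl6 fell by 0.67 and by 0.93. Among LXR targets Abca1 rose 1.35-fold in WT and 1.64-fold in KO. Abcg1 fell by 1.32 in WT and by 2.58 in KO, and Mylip fell by 1.14 in WT (edgeR adjusted p = 1.21e-16) and by 1.42 in KO.

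The change from 3 h to 7 h itself differed between genotypes for 6 of the 34 genes, all with a lower value in KO (6.84% of all genes were called lower in this test and 5.45% higher). None was higher in KO (0 also at an unadjusted p below 0.05 and by DESeq2; 9 and 8 were lower). The largest difference was that of Abcg1 (log2 -1.26 ± 0.13, edgeR adjusted p = 8.99e-10). Sqle rose less in KO (2.35-fold against 3.14-fold; difference -0.41 ± 0.10, edgeR adjusted p = 0.00266). For neither gene did leaving out any 1 library end the call. Nr1h3 rose less in KO (-0.42 ± 0.12, edgeR adjusted p = 0.0137), a call lost without KO replicate 3 at 3 h (edgeR adjusted p = 0.0554). Scd2 (-1.15 ± 0.30, edgeR adjusted p = 0.00619) depended on KO replicate 1 at 3 h, and without it the difference was -0.68 (edgeR adjusted p = 0.117). Tm7sf2 (-0.45 ± 0.15, edgeR adjusted p = 0.0486) and Dhcr7 (-0.50 ± 0.17, edgeR adjusted p = 0.0496) lay at the threshold, and each call was lost in 9 of 12 runs that left out a library. Hmgcs1 had the smallest p of the mevalonate arm (-0.24 ± 0.09, edgeR adjusted p = 0.0833) and Srebf2 that of the control genes (-0.23 ± 0.13, edgeR adjusted p = 0.292), and neither passed. For Abca1 the difference was 0.29 ± 0.17 and did not pass. Stable-reference scaling moved the median of all genes by -0.23 in this test and called 8 of the 34 genes lower.

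**Figure D4:**
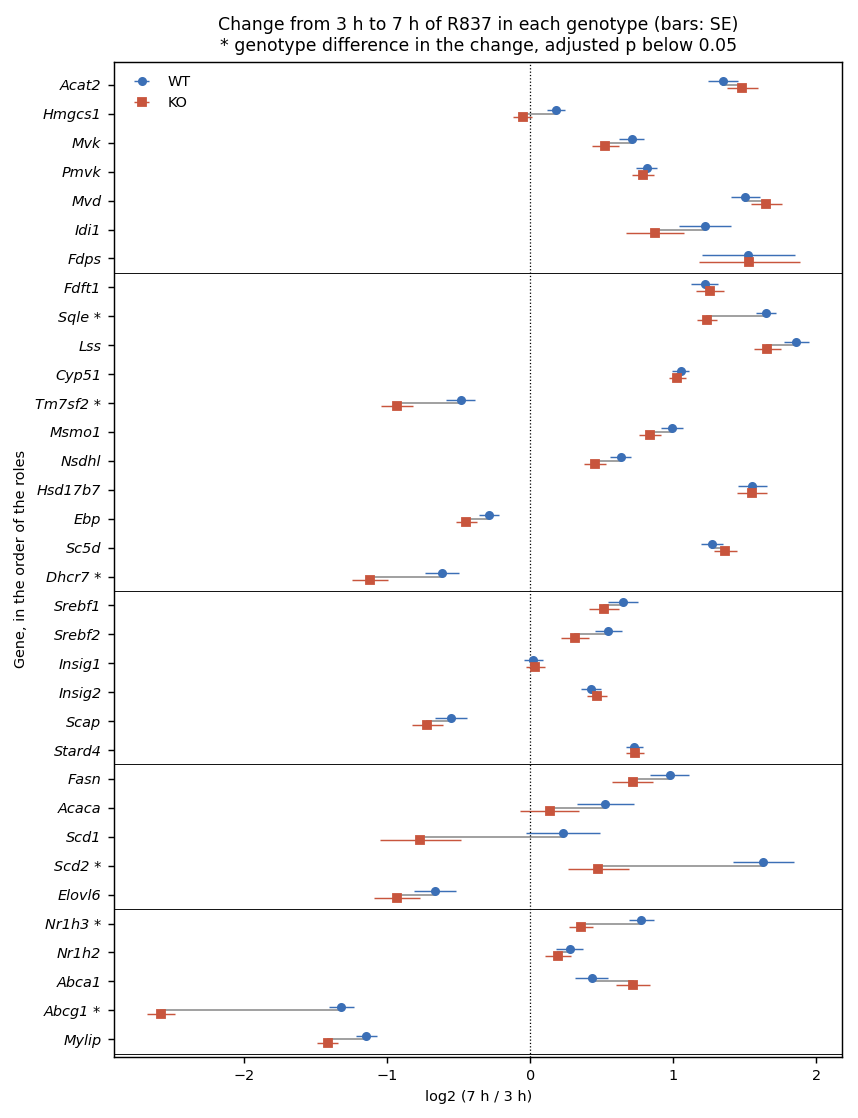
Log2 change from 3 h to 7 h of R837 for each gene in WT (blue circles) and KO (red squares), with SE, by role; an asterisk marks the 6 genes whose change differed between genotypes. Most sterol genes lie to the right of 0 in both genotypes, Tm7sf2, Ebp and Dhcr7 lie to the left, and Abcg1 shows the widest gap.

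The genotype difference was also measured after transcription had been blocked. KO minus WT was called lower in 20 of the 34 genes after 0.5 h of ActD (12.7% of all genes), 16 after 1 h (9.92%), 14 after 2 h (15.4%) and 17 after 4 h (17.9%). It was called higher in 5 (13.7%), 2 (7.51%), 6 (14.7%) and 6 (17.7%) in turn. Of the 18 synthesis genes 16, 10, 11 and 14 were lower and 0 higher at the 4 times. The most negative value was that of Fdps after 1 h (-1.23 ± 0.36, edgeR adjusted p = 0.0137), at 0.3754, 0.4481 and 0.5516 CPM in KO and 1.136, 1.112 and 0.954 CPM in WT, a call lost without KO replicate 1 (-1.09, edgeR adjusted p = 0.0728). The 20 lower calls after 0.5 h were 13 in a fit of only the groups compared. Under stable-reference scaling the medians of all genes moved by 0.19, -0.11, 0.23 and 0.33, and 4, 16, 1 and 2 of the 34 genes were called lower and 5, 2, 6 and 8 higher. All 18 synthesis genes were below the median of all genes at each of the 4 times under that scaling. Since scaling moves all genes of a library alike, this position is no further test.

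Hmgcs1 after 4 h of ActD was at 87.26, 87.45 and 94.01 CPM in KO and 145.1, 129.7 and 129.1 CPM in WT, and the genotypes were apart (1.5-fold lower, edgeR adjusted p = 3.19e-09). Nr1h3 after 1 h of ActD was at 141.1, 145.1 and 136.8 CPM in KO against 82.42, 70.96 and 78.77 CPM in WT. This was its widest gap of the 6 conditions (1.82-fold higher, edgeR adjusted p = 5.01e-10). Mylip after 4 h was at 7.928, 8.284 and 7.859 against 4.18, 4.066 and 4.712 CPM (1.86-fold higher, edgeR adjusted p = 6.35e-09). Abca1 after 1 h was at 141.5, 147.5 and 128.6 against 168.9, 190.4 and 181.8 CPM, lower in KO (log2 -0.37 ± 0.12, edgeR adjusted p = 0.0235), opposite to its sign at 3 h and 7 h. This call was lost after removal of the trend with gene length (-0.15) and without KO replicate 1, KO replicate 3, WT replicate 2 or WT replicate 3 (-0.39 to -0.32). At that time the Spearman correlation of counts with gene width was -0.12 to -0.01 in KO and 0.15 to 0.23 in WT. Fatty acid genes were called lower in 2 of 5 after 0.5 h (12.7% of all genes) and in 3 of 5 after 1 h (9.92%). After 2 h and 4 h 0 of 5 were called lower (15.4% and 17.9% of all genes). Scd2 after 0.5 h was at 18.85, 19.13 and 19.34 CPM in KO against 31.5, 60.08 and 22.47 CPM in WT (2.0-fold lower), a call lost without WT replicate 2 (-0.49, edgeR adjusted p = 0.0736). The Scd1 call after 0.5 h was lost without KO replicate 1, 2 or 3 or WT replicate 2 (log2 -0.80 to -0.28). It also ended under stable-reference scaling (-0.59) and in a fit of only the groups compared (-0.75). After 1 h the Scd2 call was lost without KO replicate 1, 2 or 3 or WT replicate 1 or 2 (-0.73 to -0.52). DESeq2 (-0.63), stable-reference scaling (-0.75) and removal of the trend with gene length (-0.54) ended it too.

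Slopes over 0 to 4 h of ActD are log2 changes per hour relative to the average transcript, since total RNA may fall. Counts on long genes also shifted over the series. Spearman correlations with gene width were 0.07 to 0.44 at 3 h of R837 without ActD and -0.41 to -0.19 after 4 h of ActD. That trend was not removed from the slopes. In each genotype 17 of the 34 genes had a higher relative slope (35.5% of all genes in WT and 32.3% in KO) and 10 a lower one (34.8% and 35.8%). Mylip had the lowest slope (-0.74 ± 0.07 per h in WT and -0.65 ± 0.07 in KO). Its WT mean was 36.28 ± 1.18 CPM without ActD, 18.16 ± 0.908 CPM after 0.5 h and 4.319 ± 0.345 CPM after 4 h. Abca1 (-0.20 and -0.21), Stard4 (-0.19 and -0.24), Scd2 (-0.19 and -0.18), Abcg1 (-0.17 and -0.16), Insig1 (-0.13 and -0.17), Sqle (-0.13 and -0.10), Srebf1 (-0.12 and -0.09), Dhcr7 (-0.10 and -0.11) and Hmgcs1 (-0.08 and -0.15) also fell relative to the average. Elovl6 rose most relative to the average (0.33 ± 0.03 per h in WT and 0.34 ± 0.03 in KO), from 4.358 ± 0.438 to 11.41 ± 0.965 CPM in WT after 4 h. Acat2 (0.27 and 0.26), Sc5d (0.27 and 0.25), Msmo1 (0.23 and 0.18) and Cyp51 (0.21 and 0.21) had positive slopes as well. Under stable-reference scaling, which moved the median slope of all genes by -0.21 in WT and by -0.15 in KO, 3 genes had a higher and 21 a lower slope in WT and 4 and 18 in KO. A positive slope therefore need not be a gain of transcript, since each scaling used here is relative.

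The slopes of the 2 genotypes did not differ detectably in any member, with 0 of 34 genes called by edgeR (9 of 13537 genes were called, 0.0665%) and 0 by DESeq2. The slope model takes a straight line over the hours of ActD. Its biological coefficient of variation was 12.68%, against 7.48% in the model of 12 groups, so differences in decay could be missed. At an unadjusted p below 0.05 there were 2 members lower and 0 higher, where 8.43% of all genes passed that level. The most negative difference was -0.14 ± 0.08 per h for Acaca and the most positive 0.10 ± 0.11 for Scd1. For Hmgcs1 it was -0.07 ± 0.03 per h (edgeR adjusted p = 0.593) and for Mylip 0.09 ± 0.10.

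**Figure D5:**
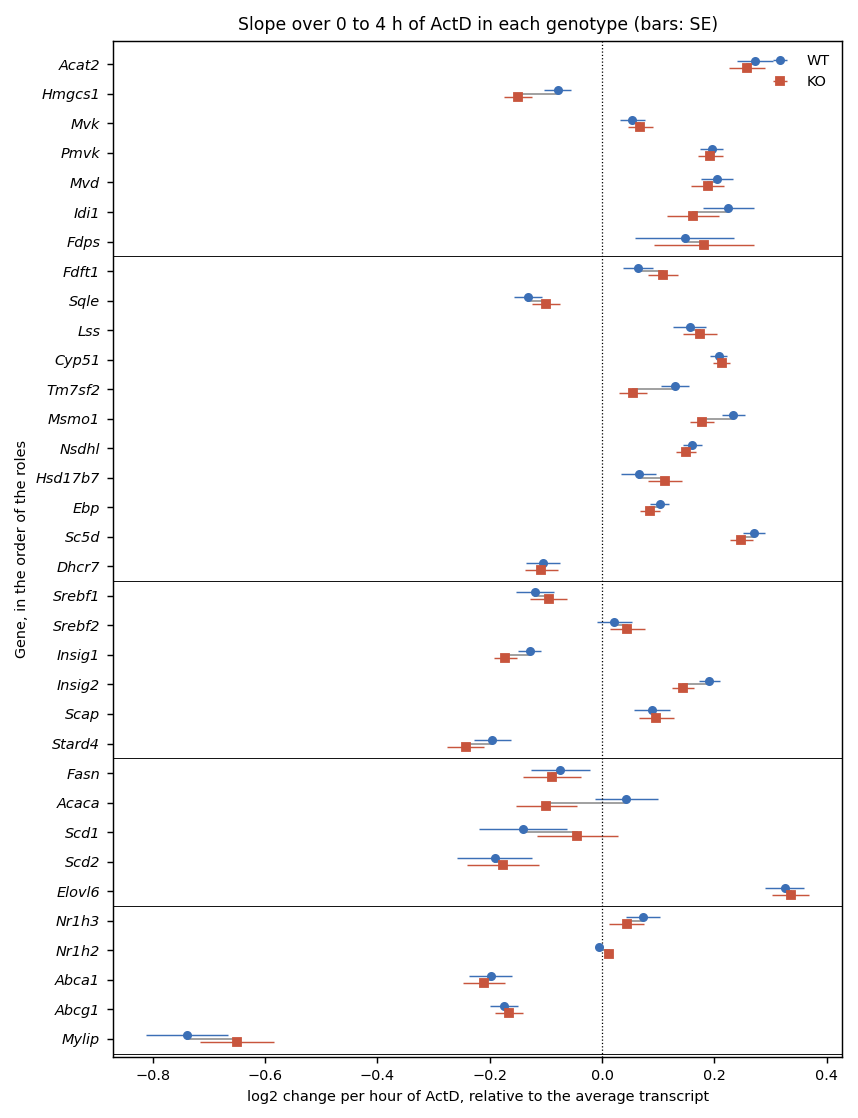
Log2 change per hour of ActD, relative to the average transcript, for each gene in WT (blue circles) and KO (red squares), with SE (not drawn where the slope is under 0.02 in size), by role. Mylip lies farthest left and Elovl6 farthest right in both genotypes, and 0 of the 34 genes were called for a difference between genotypes.

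Continued transcription between 3 h and 7 h was compared with its block over the same hours by setting 7 h of R837 against ActD for 4 h after 3 h of R837. In WT 22 of the 34 genes were higher at 7 h without the block (37.9% of all genes) and 6 lower (37.3%), and in KO 20 were higher (38.0%) and 6 lower (36.1%). Scd2 (log2 2.15), Sqle (2.14), Mylip (1.93) and Stard4 (1.49) were the highest in WT, and in KO Stard4 (1.61), Sqle (1.58) and Abca1 (1.55). Elovl6 was the lowest in both (-2.05 and -2.34). Abcg1 was lower without the block than with it (-0.58 ± 0.09 in WT and -1.90 ± 0.10 in KO), and Tm7sf2 (-0.93 and -1.22) and Scap (-0.88 and -1.12) were as well. Stable-reference scaling moved the medians of all genes by 0.79 in WT and 0.52 in KO. Under it 29 of the 34 genes were called higher and 1 lower in WT, and 27 and 5 in KO, and Abcg1 in WT was at 0.20. Spearman correlations of counts with gene width were 0.12 to 0.17 at 7 h and -0.41 to -0.19 after 4 h of ActD. That trend was not removed from this comparison.

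Other genes of the same pathways came from 4 further lists of 12, 6, 9 and 8 genes, all of which passed the filter. Of all genes 15.2% were called higher in KO and 12.6% lower at 3 h, and 15.5% and 15.1% at 7 h. The list of other sterol synthesis and SREBP machinery genes had at 7 h 3 of 12 higher and 2 lower in KO and a median log2 change of -0.02. At 3 h 5 of the 12 were lower, with a median of -0.10. Lbr, which encodes a sterol reductase of the nuclear envelope, was lower at 3 h (-0.25 ± 0.08) and higher at 7 h (0.23 ± 0.08), and Mbtps1, which encodes a protease that cleaves SREBP, was higher at 7 h (0.24 ± 0.09). In the list of oxysterol, ester and lysosomal cholesterol handling 3 of 6 were lower and 1 higher in KO at 7 h. Nceh1, a cholesteryl ester hydrolase gene, was at 68.83, 67.72 and 60.16 CPM in KO against 119.9, 111.9 and 113.9 CPM in WT (1.76-fold lower), and Lipa, the lysosomal acid lipase gene, was 1.34-fold lower. Ch25h, whose product makes an oxysterol that is an LXR ligand, was at 38.15, 32.41 and 33.88 against 22.04, 23.08 and 24.19 CPM (1.51-fold higher, edgeR adjusted p = 4.06e-06). In the list of fatty acid synthesis and desaturation 4 of 9 were lower and 1 higher at 7 h. The fatty acid desaturase genes Fads1 (log2 -0.81) and Fads2 (-0.66) were lower, and Acsl1, an acyl-CoA synthetase gene, was at 829.2, 857 and 822.1 against 501.4, 494 and 478.9 CPM (1.7-fold higher). In the list of LXR partners and targets 2 of 8 were higher and 1 lower at 7 h, with Rxra, the gene of an LXR partner receptor, at -0.38, Rxrb, another partner gene, at 0.24 and Pltp, a phospholipid transfer protein gene, at 0.22. At 3 h the last 3 lists had 1, 1 and 1 genes higher and 0, 1 and 0 lower. The change from 3 h to 7 h differed between genotypes in 1, 4, 2 and 0 genes of the 4 lists (5.45% of all genes were called higher and 6.84% lower), among them Lbr (0.47 ± 0.11), Fads1 (-0.88 ± 0.16), Nceh1 (-0.67 ± 0.11) and Ch25h (0.56 ± 0.13).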

How the data were processed

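RNA-seq libraries of mouse BMDMs (12 groups of 3) were made with TruSeq v2 kits and read as single ends of 50 bp, per the labels' protocols. The authors deposited raw read counts, the gene width in bases (the other value in each file) and RPKM values per gene. GSNAP and GRCm38 are named in the submitters' processing notes. No source used here gives the counting program, the annotation release or the use of strand, so reads of overlapping genes cannot be told apart. The deposited counts were tested as they stand; the deposited RPKM values served only to check totals, the counts amounting to 90.86 to 91.76% of the total the RPKM values imply. Depth was 20.3 M to 46.1 M counts a library, and no replicate pair looked like a repeated library. Of 52636 identifiers 52403 had a gene name.

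Libraries were scaled by TMM in edgeR 4.0.16 (R 4.3.3), filtered with filterByExpr (13748 genes kept) and fitted by the quasi-likelihood test in 1 model of all 12 groups, whose spread is shared. Slopes over 0 to 4 h of ActD used the 30 libraries of that series (13537 genes). P-values were adjusted by Benjamini-Hochberg over all genes tested, and a gene was called below 0.05. CPM values are TMM-normalised, and CPM per kb divides by the deposited width. Genes given by library were the 3 of each role with the highest mean CPM and the gene of each role with the smallest p in KO minus WT at 3 h and 7 h, in the change in WT and in its genotype difference, and further genes were named after their values were seen. The 34 genes and the further lists were chosen with earlier results of these data known. A gene of the further lists is counted and not reported by name here. Alternatives were RLE scaling, scaling to 83 ribosomal protein and elongation factor genes (stable-reference), no filter, DESeq2 1.42.0, a fit of only the groups compared, removal of a trend with gene width, other ActD spans and leaving out each library. Those for the 18 sterol synthesis genes as a count were chosen after seeing the data. Removal of the trend with gene width was run for KO minus WT only. The scripts were tested on simulated data.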

Additional observations from a re-analysis of the deposited data

Results flagged for a closer look

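For 6 of the 34 genes the change from 3 h to 7 h of R837 differed between genotypes by the interaction test of the edgeR model, each with a lower value in KO. On the log2 scale the differences were -1.26 for Abcg1, -1.15 for Scd2, -0.50 for Dhcr7, -0.45 for Tm7sf2, -0.42 for Nr1h3 and -0.41 for Sqle. Those of Abcg1 and Sqle kept an adjusted p below 0.05 in all 12 runs that left out a library, whereas the others lost it in 1 (Scd2, Nr1h3) or 9 (Dhcr7, Tm7sf2) of them. Of all genes 6.84% were called lower in KO and 5.45% higher in this interaction test. Under stable-reference scaling the Dhcr7 call ended (edgeR adjusted p = 0.0515), and Hmgcs1 (-0.46), Msmo1 (-0.37) and Mylip (-0.50) were called.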

How the results depend on the processing

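No paired analysis was possible because the labels do not tie libraries of different groups to a mouse or batch. A test of a single gene counted as kept if it stayed on its side of the threshold and, where called, kept its direction. A change of sign in an uncalled gene was not counted. Those kept were 466 of 476 with RLE scaling, 465 of 476 with DESeq2, 445 of 476 without the filter and 348 of 374 in a fit of only the groups compared. They were 186 of 204 with the trend with gene width removed, 98 of 102 with 4 h minus 0 h of ActD and 78 of 102 with slopes over 0 to 2 h. On leaving out a library 4275 of 4488 were kept, and with stable-reference scaling 339 of 476. The cause was not tested. Counts of genes called in KO minus WT with stable-reference scaling were 3 lower at 3 h, 2 higher at 7 h, and 4, 1 and 2 lower after 0.5, 2 and 4 h of ActD. The 18 sterol synthesis genes gave 3 at 3 h and 3, 1 and 2 at these ActD times. For 7 h against ActD 4 h in WT it gave 1 lower, and for slopes 3 higher and 21 lower in WT and 4 and 18 in KO. Only the groups compared gave 13 lower after 0.5 h. Slopes over 0 to 2 h gave 11 higher and 4 lower in WT and 5 lower in KO.

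Called values changed sign with stable-reference scaling for KO minus WT in Ebp (0.083) and Stard4 (0.016) at 3 h, Insig2 (0.033) after 2 h of ActD, and Sqle (0.022), Ebp (0.126) and Insig2 (0.124) after 4 h. For 7 h against ActD 4 h in WT they did in Ebp (0.169), Insig2 (0.611) and Abcg1 (0.200). WT slopes did in Mvk (-0.153), Pmvk (-0.015), Mvd (-0.004), Fdft1 (-0.149), Lss (-0.052), Tm7sf2 (-0.075), Nsdhl (-0.050), Ebp (-0.106), Insig2 (-0.015), Scap (-0.117) and Nr1h3 (-0.135). KO slopes did in Mvk (-0.085), Fdft1 (-0.045), Tm7sf2 (-0.096), Nsdhl (-0.002), Hsd17b7 (-0.041), Ebp (-0.069), Insig2 (-0.008) and Scap (-0.058). Over 0 to 2 h WT slopes did in Hmgcs1 (0.017), Mvk (-0.001), Scap (-0.002) and Nr1h3 (-0.082), and the KO slope in Sqle (0.030).

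Leaving out a library gave, for KO minus WT, 4 to 7 higher and 14 to 17 lower at 3 h, 2 to 3 and 21 to 23 at 7 h, and 4 to 7 and 15 to 19, 2 and 13 to 15, 5 to 6 and 11 to 14, and 4 to 7 and 14 to 16 after 0.5, 1, 2 and 4 h of ActD. The sterol synthesis genes gave 12 to 15, 17, 12 to 16, 8 to 10, 9 to 12 and 11 to 14 lower in the same order. The change to 7 h gave 23 to 25 and 7 in WT, 20 to 22 and 7 to 8 in KO, and 0 and 4 to 6 for its difference. For 7 h against ActD 4 h it gave 19 to 22 and 5 to 6 in WT and 16 to 20 and 6 in KO. Slopes gave 14 to 17 and 10 in WT, 16 to 18 and 9 to 11 in KO, and 0 and 0 for their difference. Idi1, Fdps, Acaca and Scd1 had mean levels under 3 CPM, where depth limits what can be detected.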
